A study of Mus musculus with 18 samples.

Results

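Interferon-stimulated genes are the genes whose transcription cells raise when an interferon binds its receptor. A list of 46 such genes was matched by gene symbol, and 44 of them were found among the 19197 genes measured. The other two, Mx1 and Mx2, were not analysed here; RefSeq annotates both as transcribed pseudogenes in C57BL/6J. The RNA of 18 libraries came from the heart apex of C57BL/6 mice, an inbred strain, 1 day after surgery, and the 3 groups held 6 libraries each. A library is called a heart below, although the labels do not state that each came from a separate mouse. The MI_DCA mice had a myocardial infarction (MI) and received DCA at 10 mg/kg per day. The MI_vehicle mice had an infarction and received vehicle, and the sham_vehicle mice had a sham operation and vehicle. DCA is read here as deoxycholic acid, a bile acid, because the study names it with TGR5, a bile acid receptor; the labels do not spell it out, and they give neither the age of the mice nor the method of infarction. The comparisons ask how the interferon response differs after infarction, and whether it differs under DCA.

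Type I interferons signal through the receptor subunits IFNAR1 and IFNAR2 to the kinases JAK1 and TYK2, which activate STAT2. STAT2 and IRF9 are subunits of the factor ISGF3, which binds the interferon-stimulated response element (ISRE). Interferon-gamma uses another receptor, and its response runs through gamma-activated sites (GAS). In the infarcted heart, DNA and RNA of dying cells are known to trigger nucleic acid sensors, with IRF3 and interferon signalling in macrophages downstream.

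Promoter sequence shows what members share apart from their levels. RefSeq promoters of GRCm38.p6, from 250 bases before to 50 bases after a start, were on hand for 35 of the 46 genes. The letters GAAANNGAAA, the core of an ISRE, were found on either strand in 20 of these 35 members (57.1%). Of the 14982 measured genes with a promoter in the table, members included, 569 (3.8%) held them. The letters TTCNNNGAA, a GAS core that reads the same on both strands, were in 10 members (28.6%) and in 1291 measured genes (8.6%). Both kinds were present in 6 members and neither in 11. All 4 GBP genes and 3 of the 4 IRG genes with a promoter in the table held the ISRE core, against 1 of 4 transcription factor genes. A match is a string of letters and not a shown binding site. The stretches below are the 120 bases before the start, with matches in capitals (an ISRE core on the other strand reads TTTCNNTTTC). Isg15 (chr4:156200819-156200938, minus strand) and Ifit1 (chr19:34640769-34640888, plus strand) are shown for repeated ISRE cores, which overlap in Isg15.
Isg15: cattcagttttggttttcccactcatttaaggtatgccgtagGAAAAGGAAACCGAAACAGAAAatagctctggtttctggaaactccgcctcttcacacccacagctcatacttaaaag
Ifit1: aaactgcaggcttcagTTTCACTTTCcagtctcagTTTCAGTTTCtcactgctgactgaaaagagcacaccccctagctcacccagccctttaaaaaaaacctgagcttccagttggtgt
Gbp2 (chr3:142620543-142620662, plus strand) and Gbp7 (chr3:142530216-142530335, plus strand) show an ISRE core without and with GAS cores further from the start.
Gbp2: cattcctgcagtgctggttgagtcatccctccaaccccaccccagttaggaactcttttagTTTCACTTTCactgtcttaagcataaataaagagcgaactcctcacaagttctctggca
Gbp7: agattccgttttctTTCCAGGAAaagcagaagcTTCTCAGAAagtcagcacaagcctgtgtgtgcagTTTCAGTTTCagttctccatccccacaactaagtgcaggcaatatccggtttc
Igtp (chr11:58199436-58199555, plus strand) and Irgm2 (chr11:58214857-58214976, plus strand), neighbouring IRG genes, each hold a GAS core followed by an ISRE core. Their longest identical run in these stretches is 38 bases.
Igtp: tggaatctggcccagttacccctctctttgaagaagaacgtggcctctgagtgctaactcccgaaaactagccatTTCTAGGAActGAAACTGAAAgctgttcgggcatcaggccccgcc
Irgm2: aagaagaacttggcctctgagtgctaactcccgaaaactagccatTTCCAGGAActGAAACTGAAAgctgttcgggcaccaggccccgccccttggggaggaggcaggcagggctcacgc
Irf1 (chr11:53769894-53770013, plus strand) holds a GAS core alone, and Trim25 (chr11:88999283-88999402, plus strand) holds neither. Both were among the 4 members with the smallest fold change in MI_vehicle hearts. Irf7, Oasl1 and Oasl2 hold neither core within the 300 bases scanned, and cores outside that window would be missed. Their log2 fold changes in MI_vehicle hearts were 1.95, 1.73 and 1.83. A relation of these cores to the size of change was not tested.
Irf1: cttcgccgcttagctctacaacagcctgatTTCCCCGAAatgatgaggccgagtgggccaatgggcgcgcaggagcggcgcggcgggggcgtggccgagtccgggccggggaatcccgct
Trim25: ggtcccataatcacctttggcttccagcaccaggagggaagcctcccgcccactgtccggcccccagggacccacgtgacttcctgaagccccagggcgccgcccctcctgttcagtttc

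The values are FPKM as deposited, that is, read abundance scaled by transcript length and by library size. Fold changes were computed on log2(FPKM + 1), which understates the change of low genes, and an adjusted p is limma's after Benjamini-Hochberg adjustment over all genes tested. A gene was called higher or lower at an adjusted p under 0.05. The files hold no read counts. Genes above 0 numbered 15800 to 15999 in MI_DCA, 15907 to 16229 in MI_vehicle and 15730 to 15891 in sham_vehicle libraries. The cardiomyocyte marker Myh6 was at 1309 to 4428 FPKM (median 2774) in MI_DCA hearts, 1286 to 3771 (median 1779) in MI_vehicle hearts and 4032 to 4668 (median 4489) in sham_vehicle hearts, so the labelled tissue carried its defining marker in every library. Members Parp9 and Dtx3l overlap on chromosome 16 by 558 bases, and strand use in counting is not given in the sources used here. Reads of near-identical genes (Ifit3 and Ifit3b, Oas1a and Oas1g, the GBP genes, the IRG genes) may be split uncertainly.

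One library in each infarcted group stood apart for these genes. MI_DCA heart 6 was the lowest of its group for 43 of the 44 measured members (the exception was Ifi204, lowest in MI_DCA heart 1), while it was lowest for 22.5% of the 11692 genes that passed the expression filter in all comparisons. MI_vehicle heart 6 was the lowest of its group for 34 of the 44 members and for 16.3% of all genes. Counts, and values of members whose calls change, are also given without these libraries. These libraries were picked for their low member values, so leaving one out raises the member level of its group by construction. More calls without it are therefore no separate support.

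The interferon-stimulated genes were higher after infarction in nearly all cases. Of the 44 measured members, 35 were called higher and none lower in MI_DCA against sham_vehicle hearts, where 15.5% of all 11842 genes tested were called higher and 8.33% lower. In MI_vehicle against sham_vehicle hearts 41 were called higher and none lower, where 38.3% of 11969 genes were called higher and 20.1% lower. All 44 fold changes were positive in both comparisons. The median log2 fold change of the members was 1.01 in MI_DCA and 1.00 in MI_vehicle hearts, beside medians over all tested genes of 0.05 and 0.12. In 18 members all MI_DCA hearts were above all sham hearts (6.31% of all genes), and in 30 members all MI_vehicle hearts were (16.1% of all genes). Both comparisons share the same sham hearts. The shares of 15.5% and 38.3% over all genes also stand beside the counts called higher in each role group below. In bulk tissue, a change in the number of cells of a type and in RNA per cell cannot be told apart. Without MI_DCA heart 6 the MI_DCA comparison called 40 members higher, with a median of 1.2. Without MI_vehicle heart 6 the MI_vehicle comparison called all 44, with a median of 1.06. Oas1g and Oas3 passed the filter of 1 FPKM in 6 libraries through the infarcted hearts, since only 2 of 6 sham hearts reached it. Scaling the libraries by median ratios moved the median of all genes in MI_vehicle against sham_vehicle from 0.12 to -0.01, a shift of over 0.1; the fold changes of all 44 members stayed positive, and 38 were called.

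**Figure D1:**
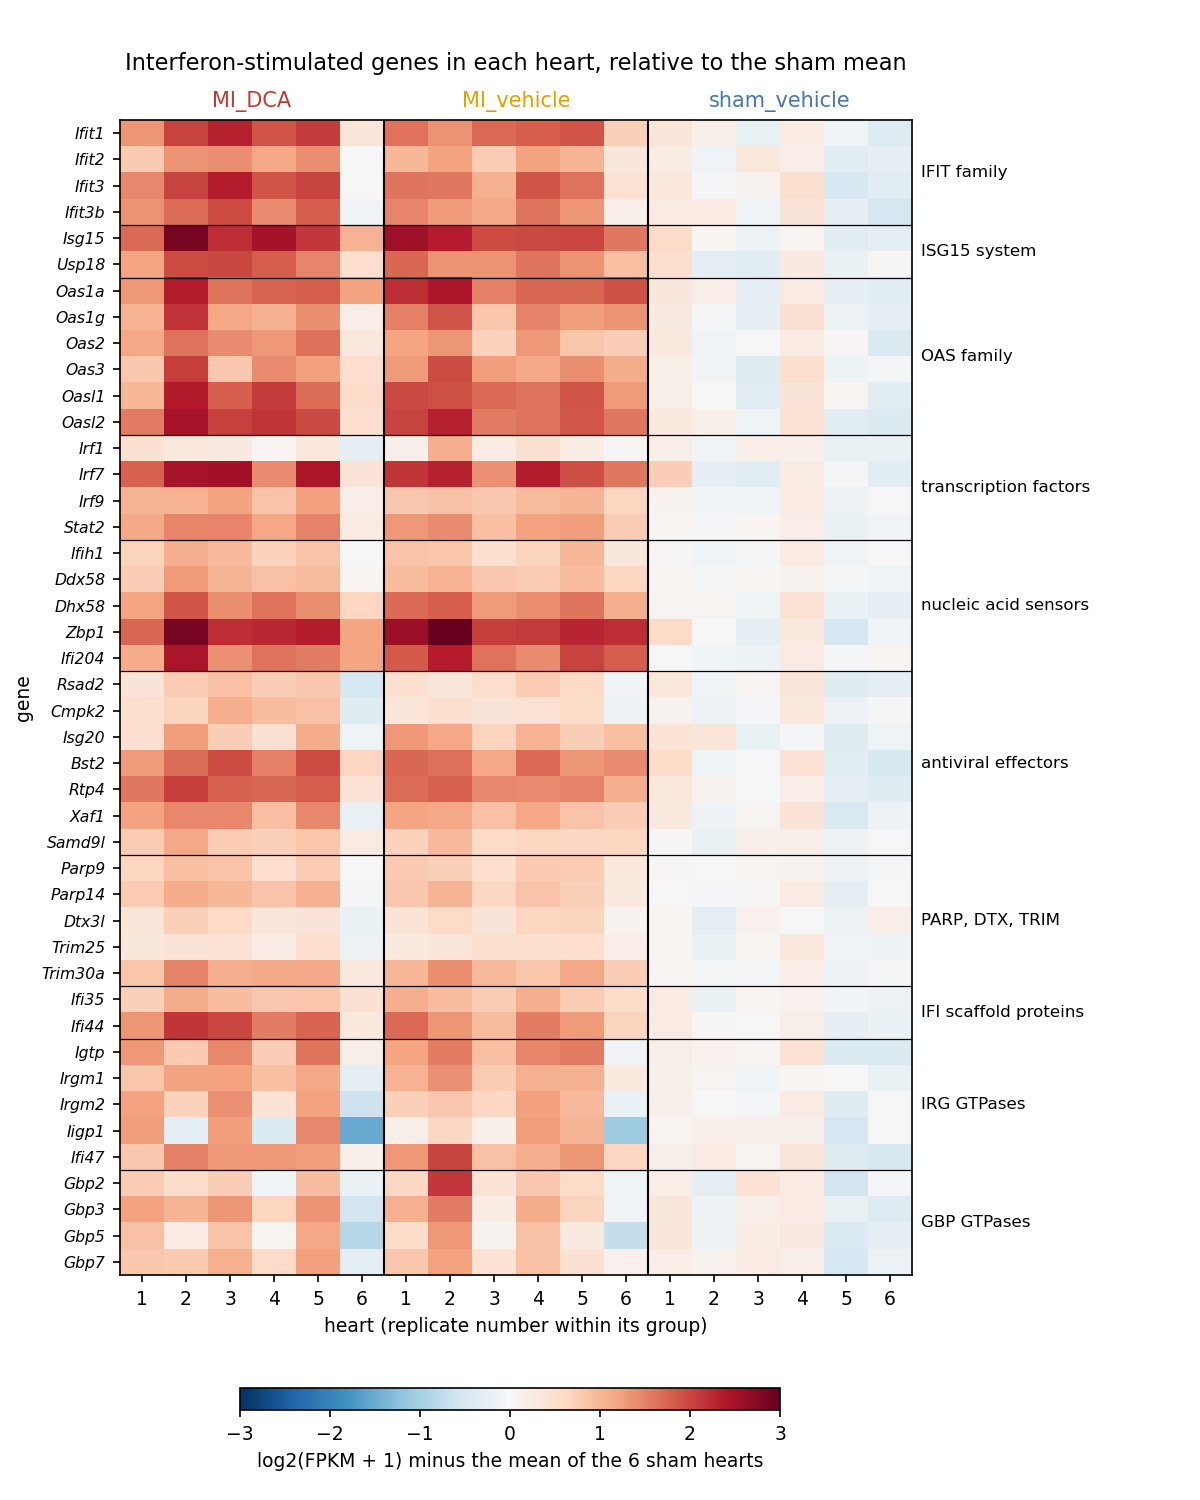
Heat map of the 44 measured interferon-stimulated genes (rows, grouped by role) in the 18 hearts (columns: MI_DCA, MI_vehicle, sham_vehicle, numbered by replicate), coloured by log2(FPKM + 1) minus the mean of the 6 sham hearts. Most rows are red in both infarcted groups; the column of MI_DCA heart 6 is pale and holds the lowest value of its group in 43 rows.

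**Figure D2:**
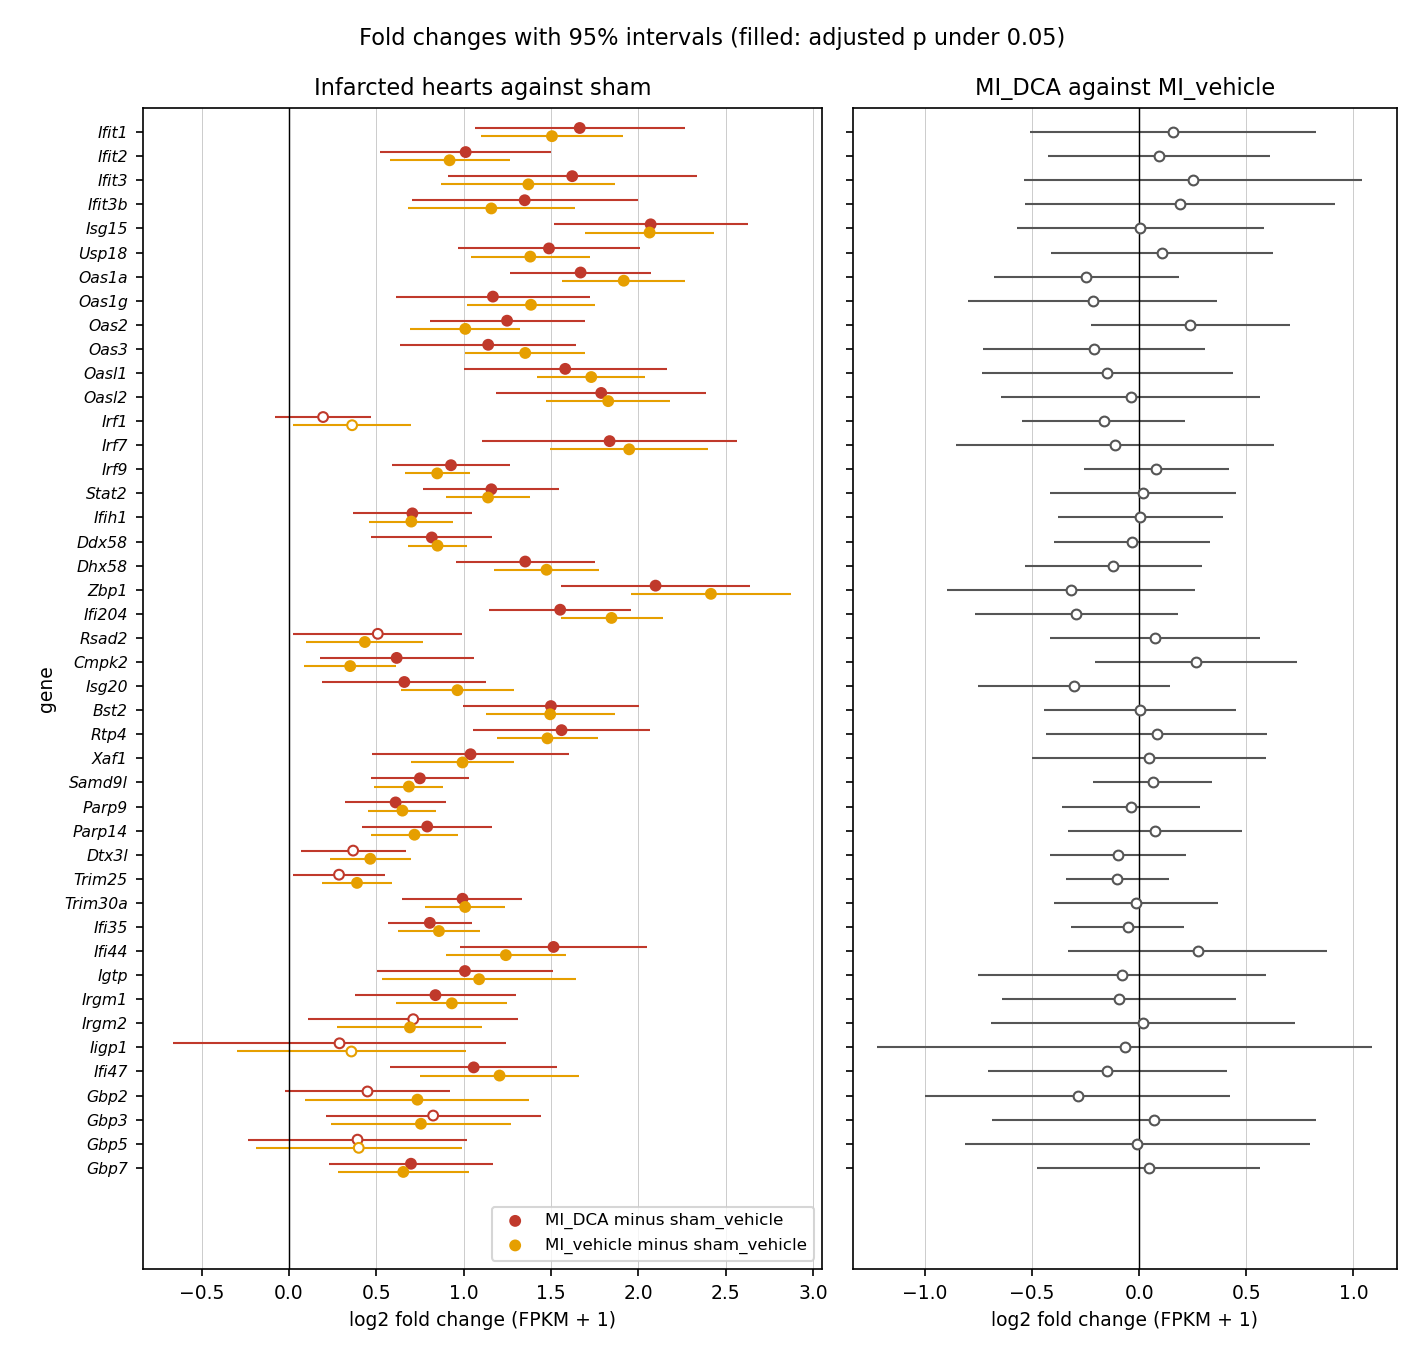
Log2 fold change on FPKM + 1 of each member with its 95% interval from limma. Left: MI_DCA and MI_vehicle hearts against sham_vehicle hearts, filled where the adjusted p was under 0.05 (35 and 41 members). Right: MI_DCA against MI_vehicle hearts, where none was called.

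Zbp1, a sensor of Z-form nucleic acids that can start necroptosis, had the highest fold change of the members in each infarcted group. It measured 7.43 to 25.5 FPKM (median 16.4) in MI_DCA hearts, 14.6 to 34.2 (median 16.6) in MI_vehicle hearts and 1.59 to 4.54 (median 2.58) in sham_vehicle hearts. All infarcted hearts lay above all sham hearts. Its log2 fold change was 2.10 (SE 0.25, adjusted p = 0.00187) in MI_DCA and 2.42 (SE 0.21, adjusted p = 1.58e-05) in MI_vehicle hearts. Ifi204, a DNA-binding protein of the p200 family, measured 13.9 to 36.9 FPKM (median 18.2) in MI_DCA hearts, 17.5 to 34.5 (median 23.6) in MI_vehicle hearts and 5.20 to 7.25 (median 5.78) in sham_vehicle hearts. Its groups did not overlap with sham either, and it had the smallest adjusted p of the members in MI_vehicle hearts (1.85, SE 0.14, adjusted p = 9.98e-06), with 1.55 (SE 0.19, adjusted p = 0.00187) in MI_DCA hearts. The RNA helicase genes Ifih1 (MDA5), Ddx58 (RIG-I) and Dhx58 (LGP2) also rose, by 0.71, 0.82 and 1.35 in MI_DCA and by 0.70, 0.85 and 1.48 in MI_vehicle hearts on the log2 scale. All 5 sensors were called in both comparisons.

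Among the transcription factors, Irf7, which drives interferon gene expression, stood at 23.3 to 104 FPKM (median 81.4) in MI_DCA hearts, 46.7 to 93.5 (median 75.3) in MI_vehicle hearts and 13.5 to 30.1 (median 15.8) in sham_vehicle hearts. MI_DCA heart 6, at 23.3 FPKM, was within the sham range. The log2 fold change of Irf7 was 1.84 (SE 0.34, adjusted p = 0.00807) in MI_DCA and 1.95 (SE 0.21, adjusted p = 3.65e-05) in MI_vehicle hearts. The ISGF3 subunits rose as well: Stat2 by 1.16 and Irf9 by 0.93 in MI_DCA hearts, and by 1.14 and 0.85 in MI_vehicle hearts. Irf9 measured 16.8 to 35.6 FPKM (median 30.7) in MI_DCA hearts, 23.1 to 30.2 (median 26.8) in MI_vehicle hearts and 13.0 to 17.4 (median 14.2) in sham_vehicle hearts, and it too fell inside the sham range in MI_DCA heart 6 alone. Irf1, a factor that interferon-gamma and other inflammatory signals induce, was not called in either group, with 0.20 (SE 0.13, adjusted p = 0.253) in MI_DCA and 0.36 (SE 0.16, adjusted p = 0.063) in MI_vehicle hearts. Its levels overlapped, at 13.3 to 22.9 FPKM (median 20.3) in MI_DCA hearts, 16.7 to 35.7 (median 19.2) in MI_vehicle hearts and 13.8 to 19.0 (median 16.7) in sham_vehicle hearts. The highest Irf1 value was MI_vehicle heart 2; without that heart the fold change was 0.22. Without MI_vehicle heart 6 it was called in MI_vehicle hearts (0.43, adjusted p = 0.0388).

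Isg15, a ubiquitin-like protein that is attached to other proteins during the response, had, after Zbp1, the highest fold change of the members in both infarcted groups. Isg15 (chromosome 4, 156199424 to 156200818) measured 15.6 to 56.7 FPKM (median 35.0) in MI_DCA hearts, 22.9 to 45.6 (median 30.7) in MI_vehicle hearts and 5.47 to 11.0 (median 6.79) in sham_vehicle hearts. All infarcted hearts, heart 6 of both groups included, lay above all sham hearts. The log2 fold change was 2.07 (SE 0.26, adjusted p = 0.00189) in MI_DCA and 2.06 (SE 0.17, adjusted p = 1.37e-05) in MI_vehicle hearts. Usp18, the protease that removes ISG15 and dampens interferon receptor signalling, measured 4.94 to 15.9 FPKM (median 12.1) in MI_DCA hearts, 6.85 to 12.8 (median 9.71) in MI_vehicle hearts and 2.35 to 4.80 (median 2.98) in sham_vehicle hearts, again without overlap with sham. Its fold changes were 1.49 (SE 0.24, adjusted p = 0.00505) and 1.38 (SE 0.16, adjusted p = 4.9e-05) in the MI_DCA and the MI_vehicle comparison.

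Active enzymes of the OAS family make oligoadenylates that activate RNase L. All 6 listed genes of the family rose in both infarcted groups. Oasl2 was the most abundant, at 20.9 to 84.6 FPKM (median 61.7) in MI_DCA hearts, 44.6 to 75.4 (median 50.5) in MI_vehicle hearts and 10.6 to 19.6 (median 14.6) in sham_vehicle hearts. Oas1a measured 13.1 to 30.0 FPKM (median 18.6) in MI_DCA hearts, 16.5 to 31.6 (median 20.6) in MI_vehicle hearts and 3.89 to 6.75 (median 5.08) in sham_vehicle hearts. In both genes each infarcted heart was above each sham heart, and the fold changes were 1.79 (SE 0.28, adjusted p = 0.00421) and 1.67 (SE 0.19, adjusted p = 0.00162) in MI_DCA hearts. In MI_vehicle hearts they were 1.83 (SE 0.17, adjusted p = 1.85e-05) and 1.92 (SE 0.16, adjusted p = 1.38e-05). Oas1g, Oas2, Oas3 and Oasl1, a gene whose mouse protein restrains translation of Irf7 mRNA, rose by 1.14 to 1.58 in MI_DCA and by 1.01 to 1.73 in MI_vehicle hearts. Oas1g and Oas3 reached 1 FPKM in only 2 of 6 sham hearts. Their place among the tested genes therefore depends on the groups where they were high.

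The IFIT proteins bind foreign RNA and block its translation, and their 4 genes form a cluster on chromosome 19. All 4 rose in both groups. Ifit3 measured 12.5 to 67.4 FPKM (median 50.5) in MI_DCA hearts, 17 to 48.3 (median 39.5) in MI_vehicle hearts and 8.51 to 17.4 (median 12.5) in sham_vehicle hearts. The groups overlapped with sham through heart 6 of each infarcted group, at 12.5 FPKM in MI_DCA and 17 FPKM in MI_vehicle. Ifit1 measured 6.40 to 27.3 FPKM (median 21.1) in MI_DCA hearts, 8.31 to 20.1 (median 17) in MI_vehicle hearts and 3.35 to 6.37 (median 4.77) in sham_vehicle hearts, with no overlap with sham. The log2 fold changes of Ifit3 and Ifit1 were 1.62 (SE 0.33, adjusted p = 0.0115) and 1.67 (SE 0.28, adjusted p = 0.00592) in MI_DCA hearts, and 1.37 (SE 0.23, adjusted p = 0.000442) and 1.51 (SE 0.19, adjusted p = 8.9e-05) in MI_vehicle hearts.

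Of the 7 antiviral effectors measured, 6 rose in MI_DCA and all 7 in MI_vehicle hearts. Bst2, which encodes tetherin and holds budding virus on the cell, had the highest mean of all members, at 39.6 to 100.2 FPKM (median 77.8) in MI_DCA hearts, 57.1 to 84.9 (median 74.5) in MI_vehicle hearts and 17.7 to 36.9 (median 23.8) in sham_vehicle hearts. Rtp4, an interferon-induced chaperone, measured 14.8 to 49.5 FPKM (median 39.2) in MI_DCA hearts, 24.5 to 40.2 (median 32.0) in MI_vehicle hearts and 8.31 to 13.9 (median 11.5) in sham_vehicle hearts. Neither overlapped with sham, and the fold changes were 1.5 and 1.56 in MI_DCA and 1.5 and 1.48 in MI_vehicle hearts, on the log2 scale. The neighbouring genes Rsad2 (viperin) and Cmpk2, a mitochondrial nucleotide kinase, had fold changes below the median of all members. Rsad2 had 0.51 (SE 0.23, adjusted p = 0.104) in MI_DCA and 0.43 (SE 0.16, adjusted p = 0.0282) in MI_vehicle hearts, where the call was lost without any one of 6 hearts. Without MI_DCA heart 6 it was called in MI_DCA hearts too (0.71, adjusted p = 0.0161). Cmpk2 measured 3.88 to 12.3 FPKM (median 9.78) in MI_DCA hearts, 4.67 to 8.20 (median 7.37) in MI_vehicle hearts and 4.53 to 6.85 (median 5.12) in sham_vehicle hearts, and its log2 fold change was 0.62 (SE 0.20, adjusted p = 0.0452) in MI_DCA hearts and 0.35 (SE 0.12, adjusted p = 0.0247) in MI_vehicle hearts. The Cmpk2 call was lost without any one of 10 of the 12 hearts in the MI_DCA comparison and without any one of 4 hearts in the MI_vehicle comparison, with adjusted p up to 0.0914 and 0.0551. Xaf1, which promotes cell death, rose by 1.04 (SE 0.26, adjusted p = 0.021) in MI_DCA hearts and 0.99 (SE 0.14, adjusted p = 0.000153) in MI_vehicle hearts; the MI_DCA call was lost without sham heart 5, at an adjusted p of 0.0503. Samd9l rose by 0.75 in MI_DCA and 0.69 in MI_vehicle hearts. Isg20, an exonuclease, rose by 0.66 (SE 0.22, adjusted p = 0.0445) in MI_DCA hearts, a call lost without any one of 8 hearts, and by 0.96 (SE 0.15, adjusted p = 0.00027) in MI_vehicle hearts.

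Of the 5 PARP, DTX and TRIM genes, which modify proteins with ADP-ribose or ubiquitin, 3 rose in MI_DCA and 5 in MI_vehicle hearts, with median log2 fold changes of 0.61 and 0.65. Parp9, which acts in a complex with the ubiquitin ligase DTX3L, measured 9.71 to 19.1 FPKM (median 16.5) in MI_DCA hearts, 12.5 to 17.6 (median 17) in MI_vehicle hearts and 8.63 to 10.6 (median 9.87) in sham_vehicle hearts. Trim30a measured 8.69 to 21.3 FPKM (median 16.0) in MI_DCA hearts, 12.3 to 19.7 (median 14.6) in MI_vehicle hearts and 6.06 to 8.16 (median 6.71) in sham_vehicle hearts. All infarcted hearts were above sham for Trim30a, and all but MI_DCA heart 6 for Parp9. Trim30a rose by 0.99 in MI_DCA and 1.01 in MI_vehicle hearts, and Parp9 rose by 0.61 in MI_DCA and 0.65 in MI_vehicle hearts. Trim25, a ubiquitin ligase that acts with RIG-I, was at 8.09 to 13.7 FPKM (median 12.4) in MI_DCA hearts, 11.0 to 13.6 (median 12.9) in MI_vehicle hearts and 8.01 to 11.9 (median 9.18) in sham_vehicle hearts. It was not called in MI_DCA hearts (0.29, SE 0.12, adjusted p = 0.0953) and was higher in MI_vehicle hearts (0.39, SE 0.09, adjusted p = 0.00337). Its MI_vehicle call was lost under quantile normalization (0.23, adjusted p = 0.0545). Without MI_DCA heart 6, Trim25 (0.38, adjusted p = 0.037) and Dtx3l (0.48, adjusted p = 0.0197) were called in MI_DCA hearts, so that all 5 genes of this group were. The genes Ifi35 and Ifi44 rose in both groups. Ifi35 measured 21.8 to 35.0 FPKM (median 28.1) in MI_DCA hearts, 23.2 to 34.1 (median 28.8) in MI_vehicle hearts and 13.5 to 18.7 (median 15.5) in sham_vehicle hearts. Ifi44 measured 4.71 to 19.0 FPKM (median 13.2) in MI_DCA hearts, 6.18 to 13.9 (median 10.2) in MI_vehicle hearts and 2.82 to 4.40 (median 3.60) in sham_vehicle hearts. Neither overlapped with sham.

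The IRG and GBP GTPases, which interferon-gamma induces strongly and which attack the vacuoles of intracellular microbes, gave mixed calls. Of 5 IRG genes, 3 rose in MI_DCA and 4 in MI_vehicle hearts. Of 4 GBP genes, 1 rose in MI_DCA and 3 in MI_vehicle hearts. Over all genes tested, 15.5% were called higher in MI_DCA and 38.3% in MI_vehicle hearts. Irgm1, a regulator of the other IRG proteins, measured 11.9 to 35.0 FPKM (median 31.0) in MI_DCA hearts, 18.1 to 39.5 (median 31.3) in MI_vehicle hearts and 12.7 to 16.8 (median 14.9) in sham_vehicle hearts. It rose by 0.84 (SE 0.21, adjusted p = 0.0214) in MI_DCA hearts and 0.93 (SE 0.15, adjusted p = 0.000308) in MI_vehicle hearts, and MI_DCA heart 6 was below every sham heart. The further IRG genes Igtp, which also encodes a regulator, and Ifi47 rose by 1.01 and 1.06 in MI_DCA and by 1.09 and 1.21 in MI_vehicle hearts on the log2 scale. Iigp1, an effector IRG protein, was not called, with 0.29 (95% interval -0.66 to 1.24, adjusted p = 0.633) in MI_DCA and 0.36 (95% interval -0.30 to 1.01, adjusted p = 0.328) in MI_vehicle hearts. Its hearts spread on both sides of sham: it measured 10.9 to 91.1 FPKM (median 53.6) in MI_DCA hearts, 15.4 to 80.1 (median 44.3) in MI_vehicle hearts and 23.0 to 37.0 (median 35.6) in sham_vehicle hearts. With 1 heart left out, the MI_DCA value of Iigp1 was 0.06 to 0.65, the highest without MI_DCA heart 6, and it was not called in any of these fits. Irgm2 was not called in MI_DCA hearts (0.71, SE 0.28, adjusted p = 0.0741) but was without MI_DCA heart 6 (0.98, adjusted p = 0.00751). Gbp2 measured 11.7 to 26.8 FPKM (median 21.7) in MI_DCA hearts, 12.2 to 62.5 (median 21.0) in MI_vehicle hearts and 8.81 to 18.5 (median 14.4) in sham_vehicle hearts, and its highest value was MI_vehicle heart 2. Its call in MI_vehicle hearts (0.74, SE 0.30, adjusted p = 0.0474) was lost without any one of 9 of the 12 hearts, and the fold change was 0.46 without MI_vehicle heart 2. The GBP gene called in MI_DCA hearts was Gbp7, with 0.70 (SE 0.22, adjusted p = 0.037) in MI_DCA hearts and 0.66 (SE 0.17, adjusted p = 0.00608) in MI_vehicle hearts; its MI_DCA call was lost without any one of 8 hearts. Gbp3 had 0.83 (SE 0.29, adjusted p = 0.0511) in MI_DCA hearts, or 1.11 (adjusted p = 0.00245) without MI_DCA heart 6, and 0.76 (SE 0.24, adjusted p = 0.0159) in MI_vehicle hearts. Without MI_vehicle heart 6, Iigp1 was called (0.64, adjusted p = 0.0183), and so was Gbp5 (0.62, adjusted p = 0.0263).

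No difference between MI_DCA and MI_vehicle hearts passed the test. None of the 44 members was called by limma, and none of all 12004 genes tested was (0%), although 1299 of those had an unadjusted p under 0.05. None of the members had an unadjusted p under 0.05 in limma or in the exact permutation test. The median log2 fold change of the members was -0.01, beside -0.06 over all genes, and 21 of 44 were positive. The 95% interval lay within 1 log2 unit on either side of 0 for 42 members; the exceptions were Iigp1 (-0.07, 95% interval -1.22 to 1.09, adjusted p = 0.96) and Ifit3 (0.25, 95% interval -0.54 to 1.04, adjusted p = 0.764). The smallest p-values belonged to Isg20, Ifi204 and Oas1a, all lower in sign. Isg20 measured 3.75 to 11.4 FPKM (median 6.94) in MI_DCA hearts, 7.21 to 11.6 (median 9.07) in MI_vehicle hearts and 2.98 to 5.88 (median 3.83) in sham_vehicle hearts, with a log2 fold change of -0.30 (95% interval -0.75 to 0.15, adjusted p = 0.567). Ifi204 had -0.29 (95% interval -0.77 to 0.18, adjusted p = 0.591) and Oas1a -0.25 (95% interval -0.68 to 0.18, adjusted p = 0.616). Without MI_DCA heart 6 the median of the members was 0.18 and 35 of 44 were positive, with 7 at an unadjusted p under 0.05 and none called (smallest adjusted p = 0.371). Without MI_vehicle heart 6 the median was -0.10 and 8 were positive. Since each of these hearts was picked for its low members, the shifts follow from that choice.

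The infarcted hearts differed widely in injury markers. Nppb, the natriuretic peptide gene of stressed heart muscle, was at 299, 2414, 144, 2365, 167 and 2594 FPKM in MI_DCA hearts 1 to 6 and at 2555, 3499.5, 2144, 324, 1102 and 2715 FPKM in MI_vehicle hearts 1 to 6, against 75.0 to 277 FPKM in sham hearts. Acadm, a fatty acid oxidation enzyme of heart muscle, was at 510.0, 208, 501, 374, 436 and 252 FPKM in MI_DCA hearts and 188, 196, 293, 521, 312 and 141 FPKM in MI_vehicle hearts, against 536 to 679.7 FPKM in sham hearts. MI_DCA hearts 3 and 5 thus had Nppb within the sham range, MI_DCA heart 1 and MI_vehicle heart 4 were just above it, and all of them had Acadm closer to sham than the other infarcted hearts.

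The number of members above sham reached its limit of 44 in the infarcted hearts whose Nppb and Acadm were closest to sham. It was 39 to 43 in the other infarcted hearts except heart 6 of each group. In MI_DCA hearts 1 to 6, the number of members above every sham heart was 44, 42, 44, 39, 44 and 18. In MI_vehicle hearts 1 to 6 it was 42, 43, 40, 44, 43 and 30. The share of all 11692 genes above every sham heart was 26.1%, 45.5%, 17.1%, 32.0%, 29.2% and 38.3% in the MI_DCA hearts and 45.3%, 45.5%, 45.2%, 23.2%, 40.9% and 46.9% in the MI_vehicle hearts. All 44 members exceeded sham in the 4 infarcted hearts with the lowest Nppb and highest Acadm, which had the smallest shares over all genes. The fewest did so in heart 6 of each group, where Nppb was 2594 FPKM in MI_DCA and 2715 FPKM in MI_vehicle. The mean log2(FPKM + 1) over the 44 members was 4.0, 4.42, 4.34, 4.06, 4.34 and 3.11 in MI_DCA hearts and 4.20, 4.40, 3.89, 4.20, 4.13 and 3.61 in MI_vehicle hearts, against 2.74 to 3.24 in sham hearts. This score separated all infarcted hearts but MI_DCA heart 6 from sham. It did not follow the order of the counts and was highest in heart 2 of each infarcted group, where Nppb was 2414 FPKM in MI_DCA and 3499.5 FPKM in MI_vehicle. Spearman's rho of the score with Acadm was -0.257 in MI_DCA and 0.371 in MI_vehicle hearts, and was not tested.

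**Figure D3:**
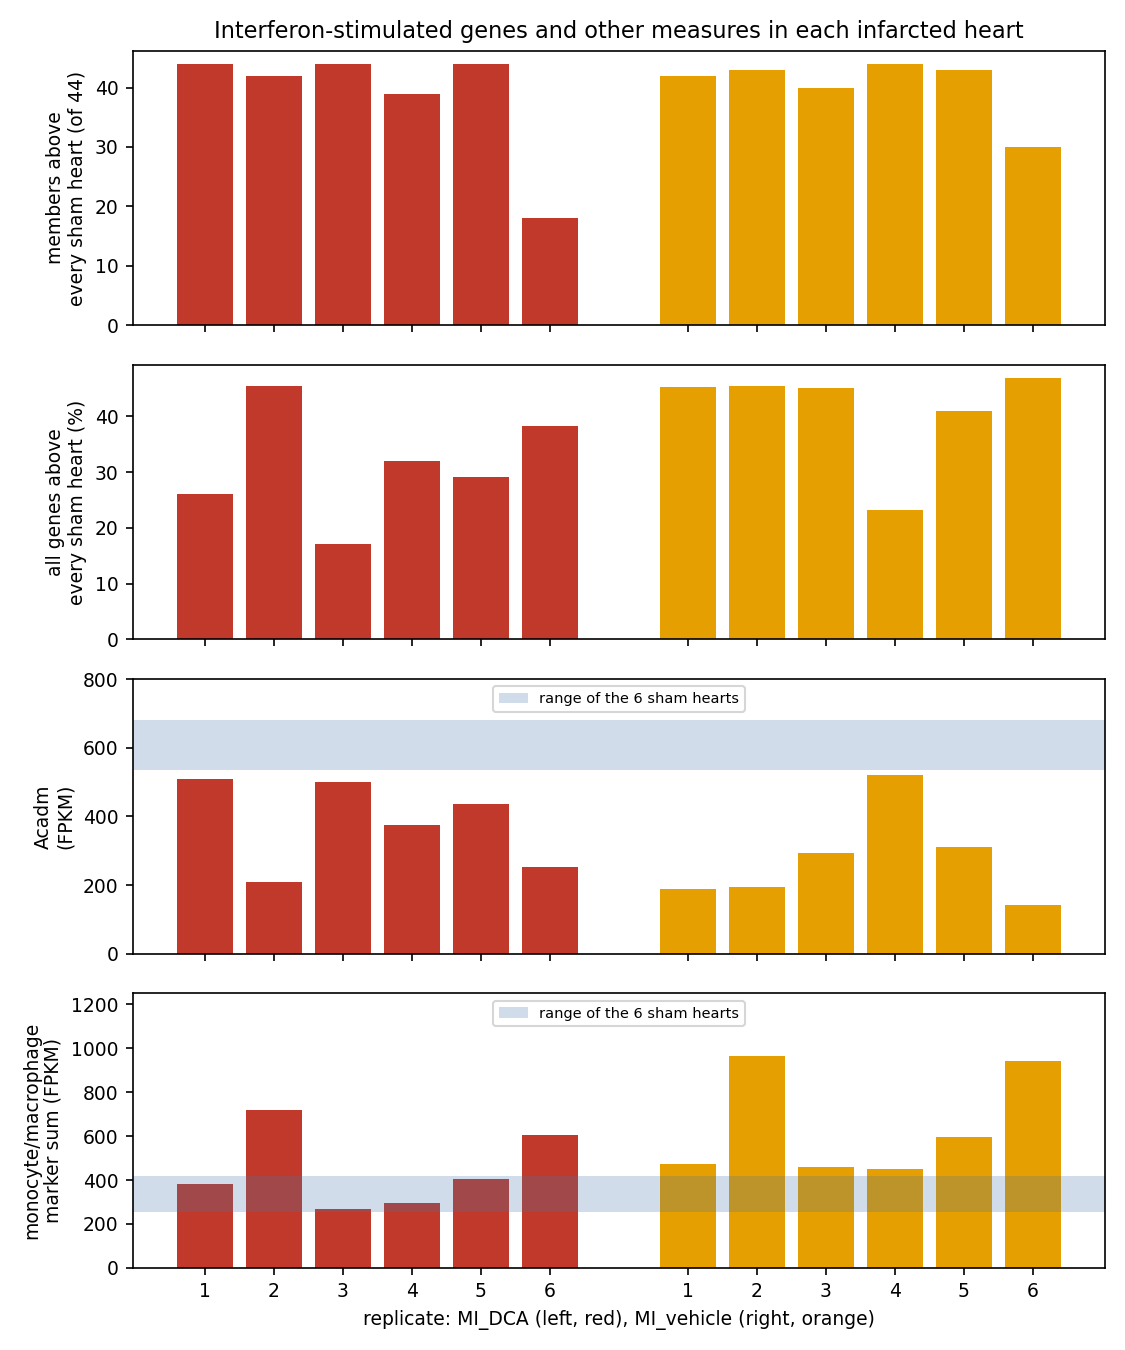
Bars give, for each infarcted heart (MI_DCA left, MI_vehicle right), the number of 44 members above every sham heart, the percent of all genes above every sham heart, Acadm in FPKM and the summed monocyte and macrophage markers in FPKM; bands in the Acadm and marker panels mark the range of the 6 sham hearts. The count is 44 in MI_DCA hearts 1, 3 and 5 and MI_vehicle heart 4, whose Acadm is 436 to 521 FPKM, and in heart 6 it is 18 for MI_DCA and 30 for MI_vehicle.

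Members differed in how they ranked the hearts. Iigp1 was at 80.6, 26.9, 80.2, 24.7, 91.1 and 10.9 FPKM in MI_DCA hearts 1 to 6 and at 37.5, 51.1, 36.8, 80.1, 67.8 and 15.4 FPKM in MI_vehicle hearts 1 to 6, against 23.0 to 37.0 FPKM in sham hearts. The 4 highest values were in the 4 infarcted hearts with the highest Acadm, and heart 6 of each infarcted group was below every sham heart. Irgm2, another regulator of IRG proteins, was highest in the same 4 hearts, with 25.4, 17.6, 28.9, 14.2, 25.3 and 6.52 FPKM in MI_DCA hearts and 18, 19.3, 16.5, 26.0, 21.6 and 8.94 FPKM in MI_vehicle hearts, against 7.86 to 12.5 FPKM in sham hearts. Ifi204 had another order, with 13.9, 36.9, 17, 20.5, 19.5 and 14.7 FPKM in MI_DCA hearts and 23.7, 34.5, 20.4, 17.5, 27.1 and 23.4 FPKM in MI_vehicle hearts; its 4 lowest values were MI_DCA hearts 1, 6 and 3 and MI_vehicle heart 4. Zbp1 was likewise highest in heart 2 of each group, at 25.5 FPKM in MI_DCA and 34.2 FPKM in MI_vehicle.

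**Figure D4:**
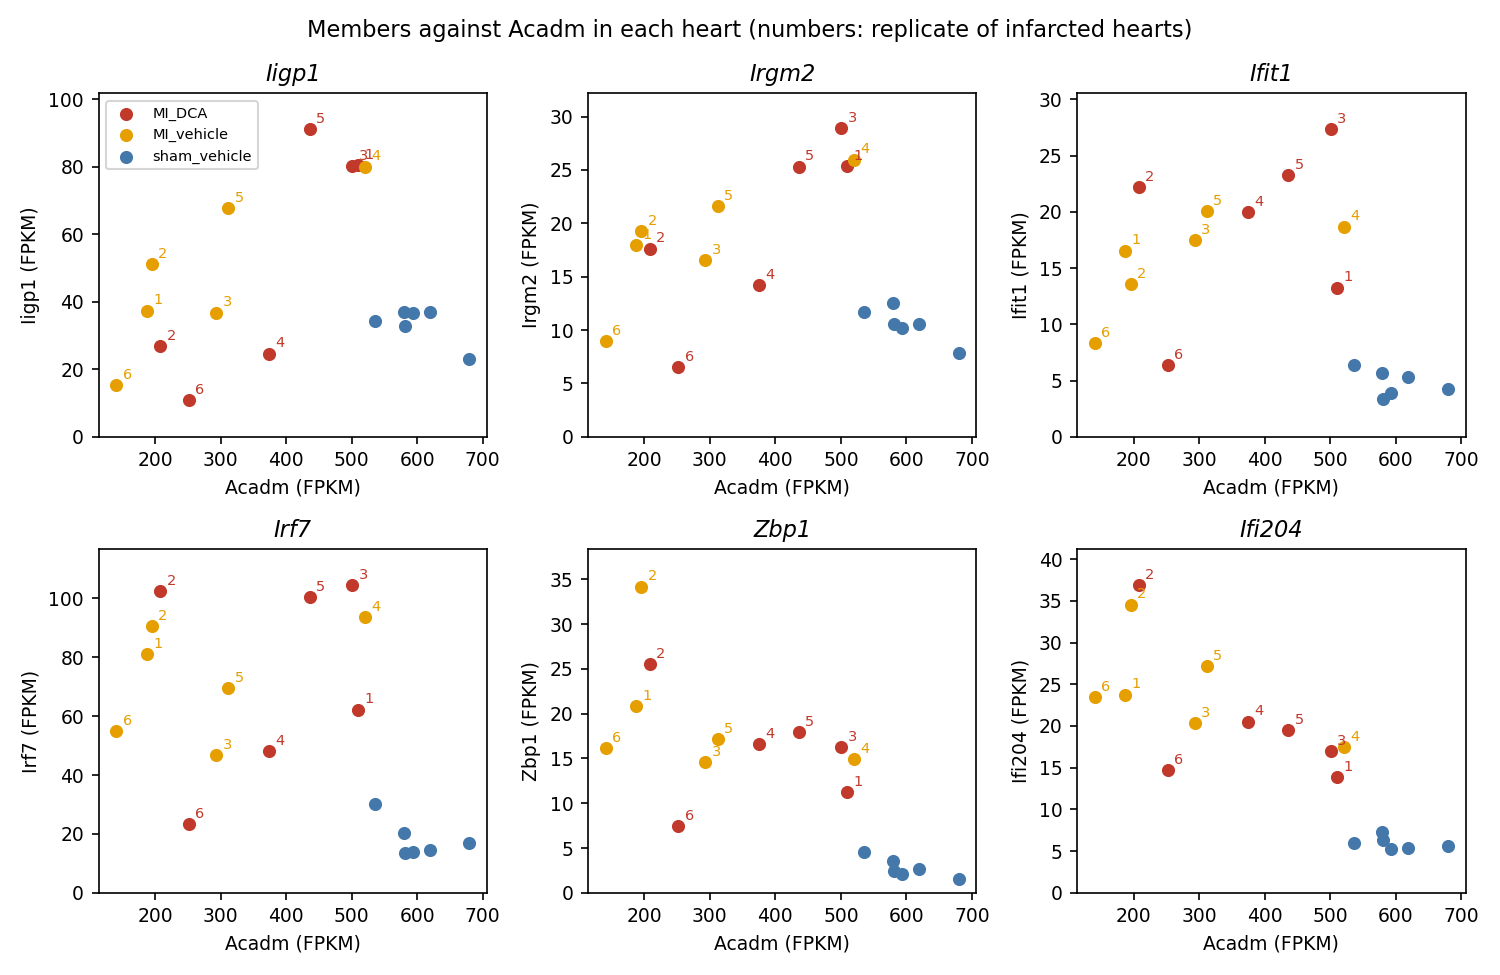
FPKM of 6 members against Acadm FPKM, one point per heart (MI_DCA, MI_vehicle and sham_vehicle, numbers naming the replicate of infarcted hearts). Iigp1 reaches 91.1 FPKM at the high-Acadm end of the infarcted hearts and falls below sham in heart 6 of both groups, whereas Ifi204 peaks in heart 2 of both groups, at 36.9 FPKM in MI_DCA and 34.5 FPKM in MI_vehicle.

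No relation tested between a member and an injury marker passed after adjustment. Each of 24 members, chosen for abundance, size of change or p between MI_DCA and MI_vehicle, was set against Acadm within each infarcted group and against Nppb within MI_vehicle hearts, giving 72 relations over 6 hearts each. Irgm2 and the number of members above sham were not among them. Nppb in MI_DCA hearts fell into 2 clusters, so no relation is given there. None had an adjusted p under 0.05 in a two-sided exact permutation test of Pearson's r (smallest adjusted p = 0.886) or of Spearman's rho (smallest adjusted p = 0.791), and 1 had an unadjusted p of r under 0.05. Trim25 against Acadm in MI_vehicle hearts was that one, with r = 0.862 (exact permutation p = 0.025), rho = 0.829 (exact permutation p = 0.0583) and r = 0.967 without the 2 hearts farthest from the Acadm median. Iigp1 against Acadm had r = 0.804 (exact permutation p = 0.0681) and rho = 0.657 (exact permutation p = 0.175) in MI_DCA hearts. In MI_vehicle hearts it had r = 0.82 (exact permutation p = 0.05) and rho = 0.829 (exact permutation p = 0.0583). Without the 2 farthest hearts r was 0.823 in MI_DCA and 0.373 in MI_vehicle hearts, so the MI_vehicle value rests on those hearts. Ifi204 against Acadm had the opposite sign, with r = -0.629 in MI_DCA hearts (exact permutation p = 0.169) and -0.555 in MI_vehicle hearts (exact permutation p = 0.244), and rho = -0.657 in MI_DCA hearts (exact permutation p = 0.175) and -0.314 in MI_vehicle hearts (exact permutation p = 0.564). Its r without the 2 farthest hearts was -0.867 in MI_DCA and -0.412 in MI_vehicle hearts. With 6 hearts the smallest p an exact test can give is 0.00278. Adjusted over 72 relations, a lone relation at that p cannot pass. Under median-ratio scaling Trim25 against Acadm in MI_vehicle hearts reached it (rho = 1.0, exact permutation p = 0.00278), with an adjusted p of 0.2. The lack of a call therefore does not show that relations are absent.

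The 6 interferon genes measured did not exceed 0.3 FPKM in any heart. Ifnb1 was listed at 0 in 17 of 18 hearts and reached 0.12 FPKM in 1 MI_DCA heart, Ifng did not exceed 0.09 FPKM in any heart, and Ifnk was listed at 0 in all. Of 27 ligand genes listed, 12 were measured and 3 passed the filter, all of them cytokines that act beside interferons and not interferons. Il18, which promotes interferon-gamma production, was at 1.66 to 5.09 FPKM in MI_DCA and 2.03 to 4.35 FPKM in MI_vehicle hearts, against 0.18 to 1.10 FPKM in sham hearts. Its log2 fold change was 0.93 (SE 0.20, adjusted p = 0.0134) in MI_DCA hearts and 1.21 (SE 0.16, adjusted p = 0.000129) in MI_vehicle hearts. Il18 passed the filter of 1 FPKM through the infarcted hearts, where it was high. Il15 had -0.59 (SE 0.36, adjusted p = 0.22) in MI_DCA and -0.84 (SE 0.34, adjusted p = 0.049) in MI_vehicle hearts, and Ebi3 had 0.26 (SE 0.17, adjusted p = 0.257) in MI_DCA hearts and 0.54 (SE 0.21, adjusted p = 0.0441) in MI_vehicle hearts. The MI_vehicle calls of Il15 and Ebi3 were lost without any one of 10 and of 8 hearts.

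The 6 receptor genes were all measured. In MI_DCA hearts 1 was called lower and none higher, and in MI_vehicle hearts 2 were called higher and 2 lower. Of all genes tested, 15.5% were called higher and 8.33% lower in MI_DCA hearts, and 38.3% and 20.1% in MI_vehicle hearts. The shared interleukin-10 and interferon-lambda receptor subunit Il10rb fell by 0.54 (SE 0.14, adjusted p = 0.0212) in MI_DCA and 0.67 (SE 0.12, adjusted p = 0.000481) in MI_vehicle hearts on the log2 scale. Ifnar1 had 0.15 (SE 0.10, adjusted p = 0.266) in MI_DCA hearts and 0.42 (SE 0.09, adjusted p = 0.00143) in MI_vehicle hearts, and Ifngr2, of the interferon-gamma receptor, had -0.21 (SE 0.09, adjusted p = 0.0855) in MI_DCA hearts and -0.39 (SE 0.09, adjusted p = 0.00221) in MI_vehicle hearts. Of 10 JAK-STAT and IRF genes outside the list, 5 rose in MI_DCA and 7 in MI_vehicle hearts. The largest changes in MI_vehicle hearts were Irf5, Irf8 and Batf2. Irf5, which acts downstream of Toll-like receptors, had 1.03 (SE 0.19, adjusted p = 0.00869) in MI_DCA hearts and 1.46 (SE 0.18, adjusted p = 8.39e-05) in MI_vehicle hearts. Irf8, a factor of myeloid cells, had 0.61 (SE 0.18, adjusted p = 0.0296) in MI_DCA hearts and 1.27 (SE 0.14, adjusted p = 3.65e-05) in MI_vehicle hearts, and Batf2 had 0.64 (SE 0.17, adjusted p = 0.0228) in MI_DCA hearts and 0.80 (SE 0.22, adjusted p = 0.00748) in MI_vehicle hearts. The MI_DCA call of Irf8 was lost without any one of 7 hearts, and that of Batf2 without sham heart 5.

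Of 13 further nucleic acid sensing genes tested against sham, 6 rose and 1 fell in MI_DCA hearts, and 11 rose and 1 fell in MI_vehicle hearts. Beside these and the counts below, the shares over all genes were 15.5% higher and 8.33% lower in MI_DCA hearts. They were 38.3% higher and 20.1% lower in MI_vehicle hearts. The largest changes in MI_vehicle hearts were Tmem173, Ikbke and Myd88. Tmem173, which encodes the adaptor STING, had 0.99 (SE 0.18, adjusted p = 0.00817) in MI_DCA hearts and 1.31 (SE 0.17, adjusted p = 8.9e-05) in MI_vehicle hearts. The kinase Ikbke had 0.77 (SE 0.16, adjusted p = 0.013) in MI_DCA hearts and 1.21 (SE 0.19, adjusted p = 0.000341) in MI_vehicle hearts, and the Toll-like receptor adaptor Myd88 had 0.68 (SE 0.13, adjusted p = 0.00968) in MI_DCA hearts and 1.03 (SE 0.12, adjusted p = 6.04e-05) in MI_vehicle hearts. The gene that fell was Mavs, the adaptor of RIG-I and MDA5, with -0.40 (SE 0.08, adjusted p = 0.00934) in MI_DCA and -0.62 (SE 0.10, adjusted p = 0.000329) in MI_vehicle hearts. Of 14 inhibitors of the pathway, 5 rose and none fell in MI_DCA hearts, and 8 rose and 2, Irf2bp2 and Nlrx1, fell in MI_vehicle hearts. Socs3, which blocks JAK kinases and also answers to other cytokines, had 1.69 (SE 0.27, adjusted p = 0.00457) in MI_DCA hearts and 2.17 (SE 0.22, adjusted p = 2.53e-05) in MI_vehicle hearts. Nlrc5 had 0.62 (SE 0.13, adjusted p = 0.0121) in MI_DCA hearts and 1.00 (SE 0.14, adjusted p = 0.000156) in MI_vehicle hearts, and the RNA editing enzyme Adar had 0.82 (SE 0.15, adjusted p = 0.00807) in MI_DCA hearts and 0.80 (SE 0.09, adjusted p = 3.84e-05) in MI_vehicle hearts. A further 91 interferon-stimulated genes outside the list gave 40 higher of 75 tested and none lower in MI_DCA hearts. In MI_vehicle hearts 57 of 76 tested were higher and 1, Ifit1bl2, lower. The largest changes in MI_vehicle hearts were Slfn1, the chemokine Cxcl10 and Ms4a4c, with log2 fold changes of 2.40, 2.06 and 2.45 in MI_DCA and 2.82, 2.78 and 2.75 in MI_vehicle hearts. No gene of these lists was called in MI_DCA against MI_vehicle hearts.

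Markers of infiltrating cells moved with infarction. Of 8 monocyte and macrophage markers, 5 were called higher in MI_DCA hearts (15.5% of all genes) and 8 in MI_vehicle hearts (38.3% of all genes). The summed level of the 8 was 270.0 to 717 FPKM in MI_DCA, 451 to 963 FPKM in MI_vehicle and 253 to 417 FPKM in sham hearts. In MI_DCA hearts 1, 3, 4 and 5 this sum, 380.5, 270.0, 294 and 403.5 FPKM, lay within the sham range. The members above every sham heart numbered 44, 44, 39 and 44 in them. In heart 6 the sum was 604 FPKM in MI_DCA and 942 FPKM in MI_vehicle, with the lowest member scores. Lyz2 makes up much of this sum, so the sum can hide changes of the other markers. In MI_DCA hearts Lyz2 (0.16 on the log2 scale), Adgre1 (0.13) and Csf1r (-0.19) were not called. Ly6c2, Fcgr1, Itgam, Cd68 and Ccr2 were, with 3.32, 1.88, 1.14, 1.08 and 1.07. The Ccr2 call was lost without any one of 8 hearts. Ly6c2, which marks inflammatory monocytes, was above every sham heart in each infarcted heart, at 23.3, 77.7, 18.1, 16.0, 28.8 and 11.3 FPKM in MI_DCA and 30.3, 72.4, 19.4, 26.5, 22.2 and 34.5 FPKM in MI_vehicle hearts, against 0.55 to 2.84 FPKM in sham hearts, and MI_DCA heart 6 was the lowest of its group. The sum of 6 neutrophil markers was 40.4 to 179 FPKM in MI_DCA, 53.6 to 379 FPKM in MI_vehicle and 10.0 to 37.3 FPKM in sham hearts. Of 5 plasmacytoid dendritic cell markers, Siglech and Ccr9 were below 1 FPKM in every heart, Tcf4 was not called in MI_DCA or MI_vehicle hearts (a log2 fold change of -0.04 in both), and Bst2 and Irf8, which other cells also express, were called higher in both infarcted groups. Of 8 T and NK cell markers, Cd3e, Cd3g, Cd8a, Cd4 and Ncr1 were below 1 FPKM in every heart. The summed level of the 8 was 1.19 to 3.63 FPKM in MI_DCA, 4.19 to 6.18 FPKM in MI_vehicle and 2.03 to 3.52 FPKM in sham hearts. Nkg7, a cytotoxic granule gene, was at 0 to 0.77 FPKM (median 0.36) in MI_DCA hearts, 0.98 to 1.62 (median 1.05) in MI_vehicle hearts and 0.13 to 0.94 (median 0.49) in sham_vehicle hearts, Gzmb at 0.14 to 0.73 FPKM (median 0.28) in MI_DCA hearts, 0.17 to 1.22 (median 0.88) in MI_vehicle hearts and 0.07 to 0.35 (median 0.11) in sham_vehicle hearts and Klrd1 at 0.23 to 1.18 FPKM (median 0.69) in MI_DCA hearts, 0.44 to 2.58 (median 2.06) in MI_vehicle hearts and 0.23 to 0.72 (median 0.49) in sham_vehicle hearts. In the exact permutation test for genes below the filter, Nkg7 was higher in MI_vehicle hearts than in sham hearts (0.53 on the log2 scale, adjusted p = 0.0496), while Gzmb (adjusted p = 0.0787) and Klrd1 (adjusted p = 0.104) did not pass. None of the 3 passed in MI_DCA hearts against sham (smallest adjusted p = 0.552). The B cell marker Ms4a1 was below 1 FPKM in every heart. The part of infiltrating cells in the members' levels was not tested.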

How the data were processed

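RNA from the apex of 18 mouse hearts was sequenced as capture libraries (RNA Access), per the labels' protocols; capture efficiency can affect levels of different genes. Tools named in the submitters' processing notes are Bowtie2 2.2.5, RSEM 1.2.12 and DESeq2 1.4.5, with build GRCm38.p6 and no roles given. The deposited values are FPKM, a unit the headers do not name; it was checked from the values, whose sum varied more between libraries (coefficient of variation 3.09%) than the sum of value times transcript length (0.71%). RefSeq GRCm38.p6 matched 19051 gene identifiers (99.2%). Genes reaching 1 FPKM in 6 or more libraries of a comparison were fitted with limma 3.58.1 (R 4.3.3; intensity trend) on log2(FPKM + 1), with only the 2 groups compared; the procedure was tested on simulated data. Relations used Python 3.11.15 and scipy 1.17.1. Nothing in the labels states that libraries are separate mice, so a p-value reflects only the spread between libraries, which may be technical. No batch is given. The files hold no counts, so depth is unknown. Members and lists were chosen with earlier results of these data known. The text names the 2 members of highest mean in each role group, the 4 largest and 4 smallest changes in MI_vehicle hearts, the 3 smallest p between MI_DCA and MI_vehicle and the 3 largest changes of each pathway list; others were added after their values were seen. Alternatives changed the pseudocount, filter, scaling, fit, test, block and libraries included.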

Additional observations from a re-analysis of the deposited data

Results flagged for a closer look

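In each group of 6 hearts, the gap between the highest or lowest heart and its nearest neighbour was set against the group's range on the log2(FPKM + 1) scale. It passed Dixon's 95% limit in 15 of the 132 combinations of member and group (11.4%), where chance flags about 5%; members that move together are not independent. MI_DCA heart 6 was the low heart in 10 of the 15. There Ifit3b was at 3.99 FPKM (12.8 to 19.99 in the other MI_DCA hearts), Oas2 at 10.05 (19.0 to 26.8), Irf9 at 16.75 (27.0 to 35.6), Stat2 at 8.88 (17.2 to 22.1) and Rsad2 at 6.48 (12.9 to 18.8). In the same heart Rtp4 was at 14.83 FPKM (34.97 to 49.5), Xaf1 at 7.93 (18.35 to 27.3), Parp14 at 5.42 (10.14 to 13.2), Irgm1 at 11.92 (26.8 to 35.01) and Gbp3 at 4.95 (12.8 to 21.6). MI_vehicle heart 6 was low for Ifit3b, at 5.08 FPKM (10.8 to 15.3 in the other MI_vehicle hearts), and for Cmpk2, at 4.67 FPKM (7.11 to 8.2). MI_vehicle heart 2 was high for Oas3, at 5.91 FPKM (2.87 to 3.69), and for Samd9l, at 9.4 FPKM (6.89 to 7.59). Sham heart 5 was low for Iigp1, at 22.98 FPKM (32.8 to 37.04 in the other sham hearts).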

How the results depend on the processing

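The number of members called higher stayed within 1.5 times its value under all alternatives run, and none was called lower. In MI_DCA against sham_vehicle hearts it was 29 by the exact permutation test, 32 without a filter, 33 by quantile normalization, 34 by median-ratio scaling and 31 to 40 with 1 heart left out. In MI_vehicle against sham_vehicle hearts it was 38 by the exact test and by median-ratio scaling, 40 without a filter, 36 by quantile normalization, 39 with all 18 libraries in 1 fit and 38 to 44 with 1 heart left out. With replicate number as a block it was 33 in MI_DCA and 40 in MI_vehicle hearts. The labels do not say that the numbers mark a pairing. Deviations of same-numbered MI_DCA and MI_vehicle hearts correlated at -0.44 to 0.686, over 0.1 in 4 of 6 pairs, and 1 of 6 hearts correlated best with its own number, so not every pair met the limit of 0.1 set for a pairing. Between MI_DCA and MI_vehicle no member was called under any alternative run.

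Of 480 values of the 24 named members, 28 lost the call in MI_DCA and 24 in MI_vehicle hearts against sham, and none changed sign. In MI_vehicle hearts, quantile normalization lost the calls of Trim25, Gbp3, Gbp2 and Cmpk2, with Cmpk2 at 0.17 (adjusted p = 0.259). Median-ratio scaling lost those of Gbp2 and Cmpk2. In MI_DCA hearts, quantile normalization lost the calls of Cmpk2 and Isg20, and median-ratio scaling that of Cmpk2. Between MI_DCA and MI_vehicle, 47 values of 12 members changed sign; none of these was called. Under median-ratio scaling Oasl2 was 0.04, Parp9 0.037, Trim30a 0.061, Ifi35 0.026 and Iigp1 0.011; under quantile normalization Oasl2 was 0.002, Parp9 0.035, Trim30a 0.065 and Ifi35 0.007. With 1 heart left out, the log2 fold change was -0.002 to 0.417 for Ifit1, -0.149 to 0.211 for Isg15, -0.177 to 0.217 for Oasl2, -0.246 to 0.177 for Irf7, -0.087 to 0.176 for Bst2 and -0.021 to 0.313 for Rtp4. It was -0.104 to 0.084 for Parp9, -0.115 to 0.125 for Trim30a, -0.116 to 0.016 for Ifi35, -0.351 to 0.293 for Iigp1, -0.223 to 0.128 for Irgm1 and -0.098 to 0.35 for Gbp3. The highest of each range was without MI_DCA heart 6. The cause was not tested. Low members near 1 FPKM, such as Oas3, are limited most by depth, which the files do not give.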
